A study of Mus musculus with 12 samples.

Results

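The antioxidant and glutathione enzymes described here are 10 genes chosen by symbol, with earlier results of these data known. They are the glutathione peroxidases Gpx1, Gpx3, Gpx4 and Gpx6, the superoxide dismutases Sod1 and Sod2, catalase (Cat), the quinone reductase Nqo1, and Gclc and Gclm, which encode the subunits of glutamate-cysteine ligase. All 10 were found among the 17579 genes of the deposited counts. They were followed in retina and striatum of male R6/1 mice and male wt mice aged 13 to 15 weeks, untreated and on a C57Bl/6 background by their labels (C57BL/6 J in the study's methods), with 3 libraries for each genotype and tissue and 12 in all. The R6/1 line is a transgenic model of Huntington's disease (HD), in which a fragment of the human huntingtin gene holding an expanded CAG stretch is expressed from the human promoter, so that the mouse huntingtin genes remain in place. Each library was made from a pool of RNA from several mice, so n counts pools. The retinas and striata came from the same mice by the study's methods. The labels do not say whether equal library numbers in the tissues mark the same pool, and the p-values measure the spread between pools.

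Superoxide, formed mainly by leakage from the respiratory chain, is converted into hydrogen peroxide by the dismutases, Sod1 in the cytosol and Sod2 in the mitochondrial matrix. Catalase breaks down hydrogen peroxide in peroxisomes, and the glutathione peroxidases reduce peroxides elsewhere at the cost of glutathione, which is built by glutamate-cysteine ligase as the rate-limiting step. Photoreceptors combine a high oxygen use with membranes rich in polyunsaturated lipids, and medium spiny neurons are the striatal cells most affected in HD.

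The members called between genotypes below are glutathione peroxidases, most of which carry selenocysteine in the active site, encoded by an in-frame TGA codon. In the GENCODE M21 transcripts (GRCm38, all on the + strand), 24 genes have an annotated selenocysteine, 23 of them were in the table, and 3 are members of the group. The coding sequence around the active-site codon, which is in capitals with 24 bases on each side, is shown because it separates Gpx6 from the other 3 peroxidases.
Gpx1: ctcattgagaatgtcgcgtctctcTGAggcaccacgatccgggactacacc
Gpx3: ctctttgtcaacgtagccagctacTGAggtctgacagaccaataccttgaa
Gpx4: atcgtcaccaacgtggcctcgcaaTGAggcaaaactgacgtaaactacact
Gpx6: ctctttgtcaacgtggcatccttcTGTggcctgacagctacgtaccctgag
The codons lie at chr9:108339451-108339453 in Gpx1 (codon 47 of 201), chr11:54907256-54907258 in Gpx3 (codon 73 of 226) and chr10:80054737-80054739 in Gpx4 (codon 73 of 197). In mouse Gpx6 no selenocysteine is annotated. Its in-frame window most like that of Gpx3, at chr13:21313777-21313779 (codon 73 of 221), matched the Gpx3 window at 37 of 51 bases, against 23 for the next best window of Gpx6. At the capital letters it has a cysteine codon, which differs from that of Gpx3 by A3T, counted from the first base of the codon.

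Total counts per library were 17024353 to 17926885 in R6/1 retinas and 14070445 to 18661772 in wt retinas, and 15885261 to 22432431 in R6/1 striata and 17206379 to 20159277 in wt striata. Levels are given as CPM, counts scaled to a common library size with TMM factors over the 12 libraries. The tissue labels were borne out by cell markers: 10 rod genes summed to 18240 to 26160 CPM in R6/1 retinas and 60500 to 68500 CPM in wt retinas, and to at most 7.59 CPM in any striatum. The 11 medium spiny neuron genes summed to 1416 to 2666 CPM in R6/1 striata and 4346 to 5969 CPM in wt striata. They summed to 679 to 732 CPM in R6/1 retinas and 975 to 1058 CPM in wt retinas. In each genotype 10 of the 11 were lower in retina than in striatum and 1 was higher. R6/1 striatum 2 had the lowest striatal sum, at 1416 CPM against 2609 and 2666 CPM in the other R6/1 striata. Some libraries stood apart in markers of neighbouring tissue. The lens genes summed to 622 CPM in R6/1 retina 3 and to at most 55.5 CPM in the other retinas, genes of the pigment epithelium and choroid to 139 CPM in R6/1 striatum 3 and at most 20.4 CPM in the other striata, and 5 cortical neuron genes to 239 CPM in wt striatum 2 against 598 and 657 CPM in the other wt striata. In such bulk tissue, fewer cells of a type and less RNA per cell cannot be told apart.

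In the retina the calls among the members were of Gpx4 and Gpx1, in opposite directions, at a share near that of all genes. Of the 9 members with counts there, Gpx4 fell and Gpx1 rose, and the other 7 did not pass an adjusted p of 0.05. Over all 16582 genes tested in the retina, 22.3% passed, 12.7% lower and 9.58% higher in R6/1, so a count of 1 lower and 1 higher among 9 is near the background. The median log2 fold change of the 9 members was 0.06, against 0.01 over all genes tested.

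Gpx4 (ENSMUSG00000075706, chr10:80047166-80056439, + strand) encodes the peroxidase that reduces lipid hydroperoxides within membranes and restrains ferroptosis, and mice lacking it in photoreceptors lose these cells. It had 175, 144 and 147 CPM in R6/1 retinas, against 221, 245 and 209 CPM in wt retinas. Every R6/1 retina was below every wt retina. The means were 155 ± 16.8 and 225 ± 18.1 CPM (SD, n = 3 each), a log2 fold of −0.50 ± 0.08 (SE) with an adjusted p of 0.000469 by edgeR, or 0.705 times the wt level. Leaving out each library in turn, the log2 fold change stayed between −0.60 and −0.44 and passed each time. Gpx4 shares 38.7% of its 31-base words with the pseudogene Gpx4-ps2, which was listed at no more than 0.546 CPM in any library.

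Gpx1 (ENSMUSG00000063856, chr9:108338903-108340343, + strand), the abundant cytosolic and mitochondrial peroxidase of hydrogen peroxide, moved the other way. It had 25.8, 22.7 and 24.9 CPM in R6/1 retinas, against 17.9, 19.5 and 16.7 CPM in wt retinas, with no overlap between genotypes. The means were 24.5 ± 1.56 and 18.02 ± 1.40 CPM (SD, n = 3 each), and the log2 fold change of 0.47 ± 0.10 (SE) had an adjusted p of 0.00162 by edgeR. This is 1.39 times the wt level.

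Cell markers moved along with both genes, and their part in these results was not tested. All 10 rod genes and all 8 cone genes fell in R6/1 retinas, the cone genes summing to 151 to 173 CPM in R6/1 retinas and 1122 to 1273 CPM in wt retinas. Of 10 microglia and macrophage genes 6 rose and none fell, and the list summed to 69.4 to 79.4 CPM in R6/1 retinas and 49.2 to 51.1 CPM in wt retinas. Of the bipolar genes 6 of 6 fell (731 to 788 CPM in R6/1 retinas and 1100 to 1252 CPM in wt retinas), of the ganglion cell genes 6 of 7 (467 to 527 CPM in R6/1 retinas and 745 to 781 CPM in wt retinas) and of the red blood cell genes 3 of 5 (19.8 to 31.6 CPM in R6/1 retinas and 40.7 to 58.2 CPM in wt retinas). Of 7 choroid plexus genes 4 fell and 1 rose, with overlapping sums of 406 to 426 CPM in R6/1 retinas and 418 to 437 CPM in wt retinas. The 8 Müller glia genes gave 1 higher and 1 lower, with sums of 3437 to 3765 CPM in R6/1 retinas and 3961 to 4454 CPM in wt retinas. Of 7 astrocyte genes 2 rose and none fell, with overlapping sums of 650 to 766 CPM in R6/1 retinas and 681 to 708 CPM in wt retinas. Scaling without the rod and cone genes, chosen after seeing the data, gave log2 fold changes of −0.50 for Gpx4 and 0.47 for Gpx1. Such scaling alters the library factors alone, so it cannot test the part of cell loss. Without R6/1 retina 3, the library with lens RNA, the log2 fold changes of Gpx4 and Gpx1 were −0.46 and 0.46, with adjusted p of 0.00285 and 0.00679 by edgeR.

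**Figure D1:**
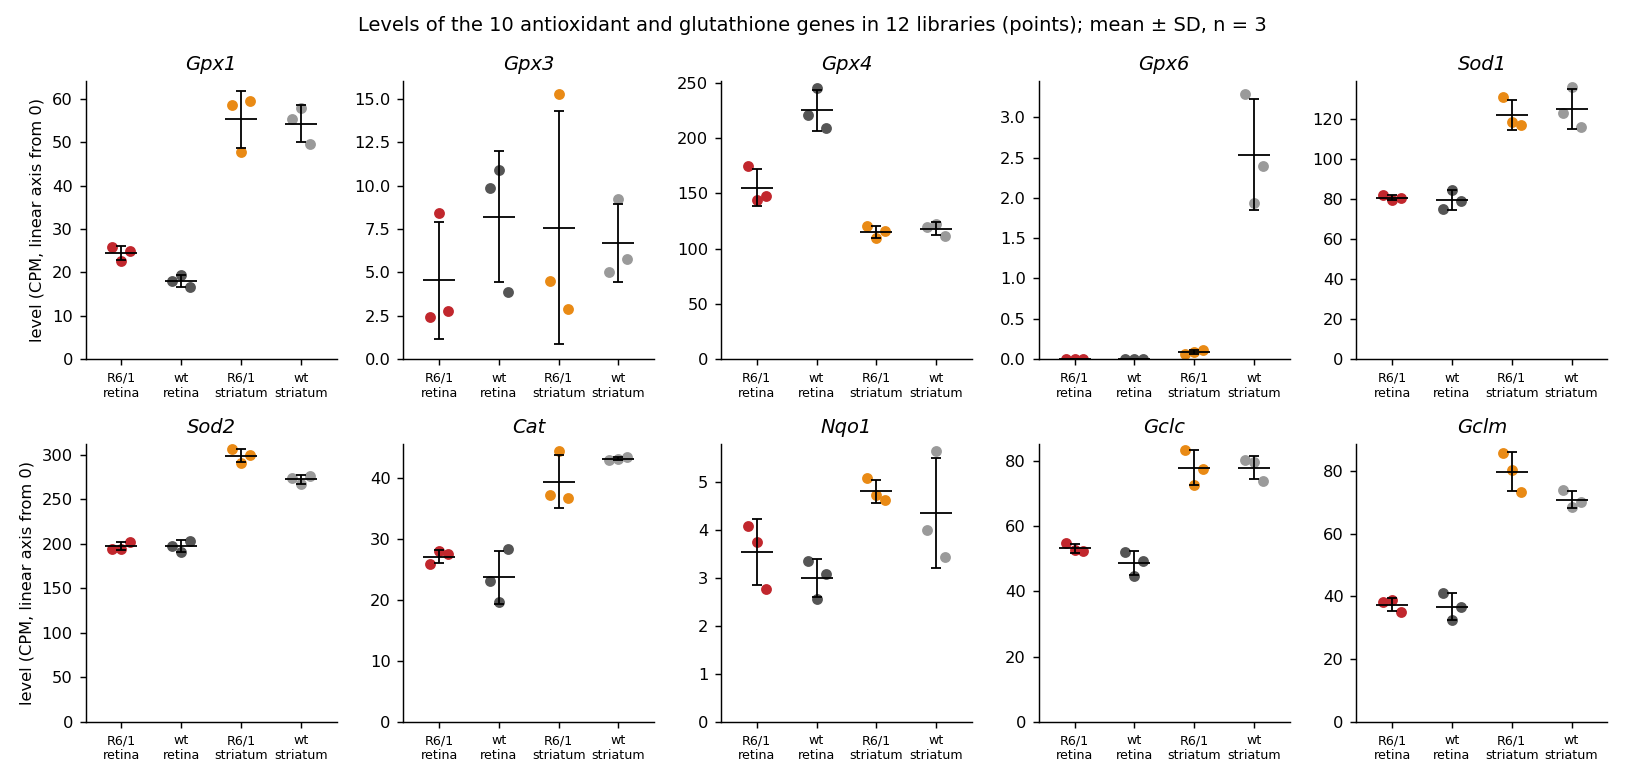
Levels in CPM (vertical, linear from 0) of each of the 10 genes in the 12 libraries, R6/1 left of wt within each tissue; points are libraries, and lines give the mean ± SD of 3. Gpx4 lies at 144 to 175 CPM in R6/1 retinas and 209 to 245 CPM in wt retinas, Gpx1 at 22.7 to 25.8 and 16.7 to 19.5 CPM, and Gpx6 at up to 0.110 CPM in R6/1 striata and 1.93 to 3.29 CPM in wt striata.

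The remaining peroxidases gave no retinal call. Gpx3 (ENSMUSG00000018339, chr11:54902453-54910377, + strand), which encodes the secreted plasma peroxidase, had 2.40, 8.44 and 2.77 CPM in R6/1 retinas and 9.84, 10.9 and 3.87 CPM in wt retinas. The genotypes overlapped, and the log2 fold change of −0.81 ± 0.72 (SE) had an adjusted p of 0.511 by edgeR, with a 95% interval of −2.22 to 0.60. Gpx6 (ENSMUSG00000004341, chr13:21312125-21319624, + strand), a close relative of Gpx3 known from olfactory epithelium and brain, was listed at 0 in all 6 retinas, so no retinal fold was computed.

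The dismutases and catalase showed smaller differences. Sod1 (ENSMUSG00000022982, chr16:90220754-90226329, + strand) had 81.8, 79.4 and 80.7 CPM in R6/1 retinas and 74.8, 84.7 and 78.9 CPM in wt retinas, differing by 0.05 ± 0.07 on the log2 scale (SE, 95% interval −0.07 to 0.18, adjusted p = 0.613 by edgeR). Sod2 (ENSMUSG00000006818, chr17:13006846-13040063, + strand) had 194, 194 and 202 CPM in R6/1 retinas and 198, 190.3 and 203 CPM in wt retinas, differing by 0.03 ± 0.06 on the log2 scale (SE, 95% interval −0.08 to 0.14, adjusted p = 0.76 by edgeR). On library totals these values were 0.17 for Sod1 and 0.14 for Sod2 (adjusted p of 0.0573 and 0.0589 by edgeR). Cat (ENSMUSG00000027187, chr2:103453849-103485160, − strand) had 25.8, 27.9 and 27.5 CPM in R6/1 retinas and 23.1, 19.6 and 28.3 CPM in wt retinas, where the highest single value was that of wt retina 3. Its log2 fold change was 0.22 ± 0.11 (SE, adjusted p = 0.178 by edgeR). Without wt retina 3 it was 0.37 with an adjusted p of 0.0268 by edgeR, so the call depended on that library. It also depended on the scaling, as given below for library totals.

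Glutathione synthesis and Nqo1 completed the retinal group. Gclc (ENSMUSG00000032350, chr9:77754535-77794485, + strand), the catalytic subunit of glutamate-cysteine ligase, had 54.9, 52.6 and 52.3 CPM in R6/1 retinas and 52.0, 44.6 and 49.3 CPM in wt retinas. The R6/1 values were all above the wt values, but the log2 fold change of 0.16 ± 0.07 (SE) had an adjusted p of 0.121 by edgeR. Gclm (ENSMUSG00000028124, chr3:122245557-122270732, + strand), the modifier subunit that raises the activity of the ligase, had 38.2, 38.8 and 35.2 CPM in R6/1 retinas and 41.1, 32.5 and 36.6 CPM in wt retinas, differing by 0.06 ± 0.08 on the log2 scale (SE, 95% interval −0.11 to 0.22, adjusted p = 0.679 by edgeR). Nqo1 (ENSMUSG00000003849, chr8:107388225-107403206, − strand), which reduces quinones with NAD(P)H, was a low transcript with 4.09, 3.76 and 2.77 CPM in R6/1 retinas and 3.35, 2.56 and 3.09 CPM in wt retinas, and its log2 fold change of 0.27 ± 0.21 (SE) had an adjusted p of 0.396 by edgeR. Counting values alone, 2 members (Gpx1 and Gclc) had all R6/1 retinas above all wt retinas, as did 15.3% of all genes tested, and 1 member (Gpx4) had them all below, as did 23%. Without TMM, on library totals, the centre of all genes shifted to a log2 value of 0.13 in retina and 0.12 in striatum. There Cat (0.34, adjusted p = 0.031 by edgeR) and Gclc (0.28, adjusted p = 0.00803 by edgeR) passed beside Gpx1, for 3 members higher.

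In the striatum the call was Gpx6, the member listed at 0 in the retina. It had 1, 2 and 2 estimated counts in the R6/1 striata, against 55, 38 and 39 in the wt striata, or 0.0620, 0.0860 and 0.110 CPM and 3.29, 1.93 and 2.39 CPM. Every R6/1 striatum was far below every wt striatum. The fitted log2 fold change was −4.76 ± 0.43 (SE) with an adjusted p of 0.00521 by edgeR. From the summed counts of 5 and 132 the level was 28.9 times lower in R6/1 striata, with an exact 95% interval of 12.1 to 90.3 that covers counting error alone. Of 16728 genes tested in the striatum, 1.45% passed, 1.32% lower and 0.132% higher in R6/1.

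The size of the Gpx6 difference held in every fit, from −4.94 to −4.53 on the log2 scale, but its call did not. Without wt striatum 1 the adjusted p was 0.0677 by edgeR, in a fit that called 1 of all genes. With the replicate number as a block it was 8.83e-05 by edgeR. The number of striatal genes called was itself unstable: it was 242 here, 988 with DESeq2, 1663 with the block, and between 1 and 1916 when single libraries were left out, 1916 without wt striatum 2. Leaving out both striatal libraries numbered 2, chosen after seeing the data, gave −4.91 for Gpx6 with an adjusted p of 7.71e-05 by edgeR.

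Striatal cell markers moved with Gpx6, and their part in the result was not tested. The 11 medium spiny neuron genes had a median log2 fold change of −1.27, with 1 gene passing lower and 9 at an unadjusted p under 0.05, and none of them was at 0 in R6/1 striata. The 6 striatal interneuron genes gave 3 lower and a median of −0.91, with sums of 123 to 136 CPM in R6/1 striata and 187 to 253 CPM in wt striata. The 7 astrocyte genes summed to 3579 to 3729 CPM in R6/1 striata and 4319 to 5441 CPM in wt striata, and the 10 microglia and macrophage genes to 399.6 to 438 CPM in R6/1 striata and 441 to 490 CPM in wt striata. No gene of either list passed by edgeR, with 3 and 2 at an unadjusted p under 0.05. Of 5 red blood cell genes 2 fell, with sums of 83.4 to 96.4 CPM in R6/1 striata and 124 to 164 CPM in wt striata, and of 8 Müller glia genes 1 fell, with sums of 2838 to 3351 CPM in R6/1 striata and 3710 to 3863 CPM in wt striata.

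**Figure D2:**
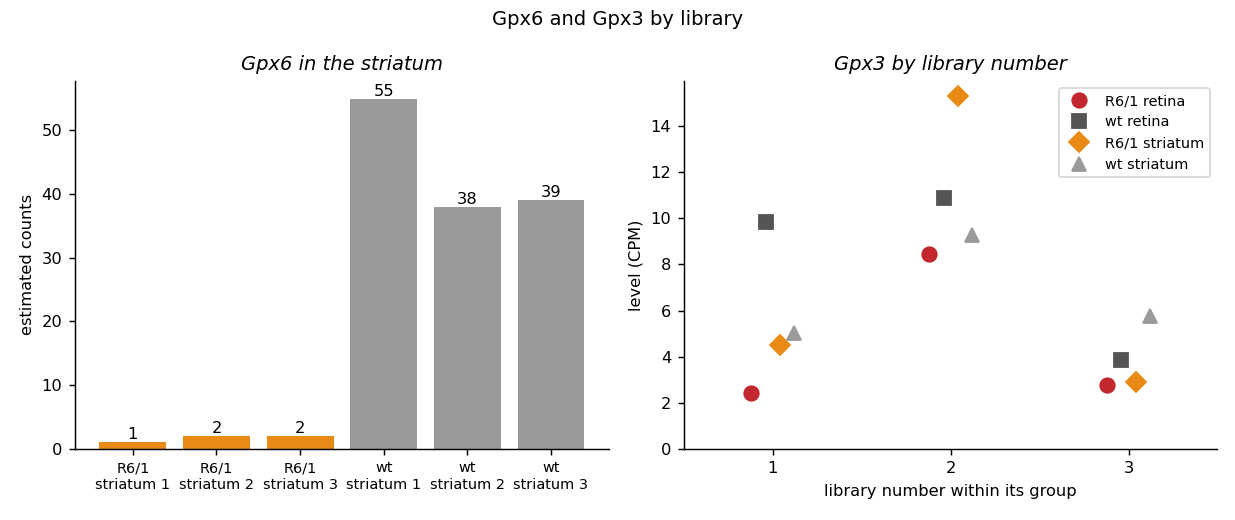
Left, estimated counts of Gpx6 (vertical bars from 0) in the 3 R6/1 striata and the 3 wt striata, at 1 to 2 and 38 to 55. Right, Gpx3 in CPM against the number of the library within its group, with a symbol for each group; library 2 holds the highest value in all 4 groups.

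The other 9 members gave no call in the striatum. No member rose there, and with an unadjusted p under 0.05 or with DESeq2 the number of members higher was also 0. Gpx1 had 58.8, 47.8 and 59.5 CPM in R6/1 striata and 55.3, 58.0 and 49.7 CPM in wt striata, a log2 fold of 0.02 ± 0.10 (SE, 95% interval −0.18 to 0.22, adjusted p = 0.931 by edgeR). Gpx4 had 120.1, 109.7 and 116 CPM in R6/1 striata and 119.9, 122 and 111 CPM in wt striata, a log2 fold of −0.04 ± 0.07 (SE, 95% interval −0.17 to 0.10, adjusted p = 0.823 by edgeR). Both peroxidases that changed in the retina thus overlapped between genotypes in the striatum. Gpx3 had 4.52, 15.3 and 2.91 CPM in R6/1 striata and 5.02, 9.26 and 5.77 CPM in wt striata, with an adjusted p of 0.901 by edgeR.

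In the striatum, Sod1 had 131, 118 and 117 CPM in R6/1 striata and 123, 136 and 116 CPM in wt striata, with a 95% interval of its log2 fold change of −0.19 to 0.12. Sod2 had 306, 291 and 299 CPM in R6/1 striata and 274, 267 and 276 CPM in wt striata. Its log2 fold change of 0.13 ± 0.06 (SE) had an adjusted p of 0.29 by edgeR. Sod2 was the 1 member with all R6/1 striata above all wt striata, as were 12.8% of all genes tested, and Gpx6 the 1 member with them all below, as were 12.7%. Cat had 37.1, 44.3 and 36.7 CPM in R6/1 striata and 42.9, 43.1 and 43.4 CPM in wt striata, a log2 fold of −0.13 ± 0.08 (SE, adjusted p = 0.423 by edgeR).

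Nqo1 had 5.08, 4.73 and 4.62 CPM in R6/1 striata and 4.005, 5.65 and 3.44 CPM in wt striata, with the highest value in wt striatum 2 and a log2 difference of 0.13 ± 0.20 (SE, adjusted p = 0.769 by edgeR). Gclc had 83.4, 72.7 and 77.7 CPM in R6/1 striata and 80.4, 79.7 and 74.0 CPM in wt striata, with a 95% interval of its log2 fold change of −0.15 to 0.14. Gclm had 85.8, 80.2 and 73.3 CPM in R6/1 striata and 73.9, 68.5 and 70.1 CPM in wt striata, a log2 fold of 0.17 ± 0.08 (SE, adjusted p = 0.256 by edgeR). The ligase subunits thus overlapped between genotypes in the striatum, Gclm by a single wt library that reached above the lowest R6/1 value.

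Whether a genotype difference itself depended on the tissue was tested over all 4 groups, for the 9 members counted in both tissues. The retinal minus the striatal log2 fold change was −0.50 ± 0.11 (SE) for Gpx4, with an adjusted p of 0.0149 by edgeR, so its fall was larger in the retina. It passed without any single library too, with adjusted p from 0.00529 to 0.0449 by edgeR. Of the 15731 genes tested, 8.24% passed, 4.86% with a negative and 3.38% with a positive difference. For Gpx1 the difference was 0.42 ± 0.14 (SE) with an adjusted p of 0.0774 by edgeR, and with each genotype and library number as a block of a retina and a striatum, chosen after seeing the data, it was 0.0334, so the call depends on whether equal numbers mark the same mice. Cat, at 0.32 ± 0.16 (SE, adjusted p = 0.237 by edgeR), and the remaining 6 did not pass. No member had a positive difference that passed, while Gpx1 did so at an unadjusted p of 0.0084, and with DESeq2 the count of positive differences was also 0.

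**Figure D3:**
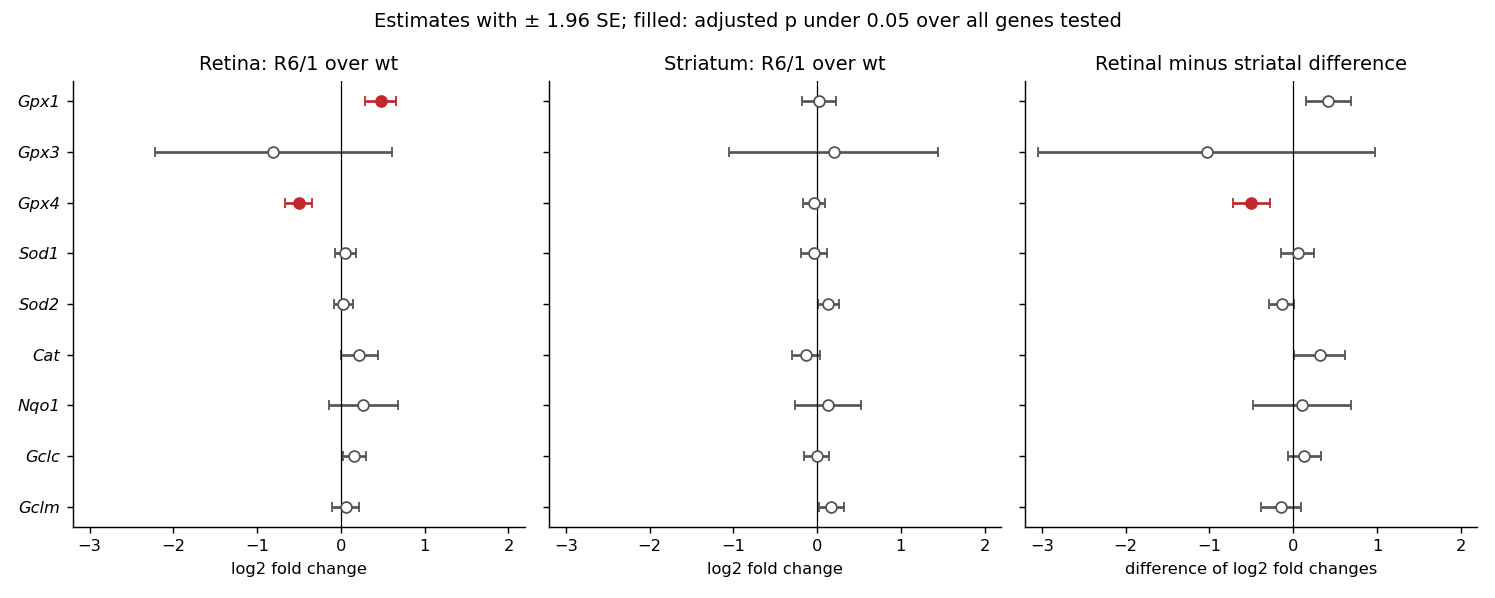
Log2 fold changes of R6/1 over wt in retina (left) and striatum (middle) and their difference (right) for the 9 members counted in both tissues, with 95% intervals; filled points passed an adjusted p of 0.05 over all genes tested. Gpx1 at 0.47 and Gpx4 at −0.50 are filled in the retina, none of the 9 in the striatum, and Gpx4 at −0.50 for the difference.

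More members passed between the tissues than between the genotypes, in comparisons that use the same 12 libraries. In wt mice 7 of the 9 members were lower in retina than in striatum and 1, Gpx4, was higher, where 76.3% of 16864 genes passed, 38.5% lower and 37.8% higher. In R6/1 mice 6 were lower and Gpx4 was higher, where 73.2% of 16885 genes passed, 36.9% lower and 36.3% higher. The median log2 ratio of retina to striatum over the 9 members was −0.66 in wt mice and −0.59 in R6/1 mice, against −0.0044 and 0.02 over all genes.

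Among the 9 members tested, the widest tissue difference was that of Gpx1, which averaged 18.02 ± 1.40 CPM in wt retinas and 54.3 ± 4.20 CPM in wt striata (SD, n = 3 each), a log2 ratio of −1.60 ± 0.09 (SE, adjusted p = 1.65e-08 by edgeR). It averaged 24.5 ± 1.56 CPM in R6/1 retinas and 55.4 ± 6.54 CPM in R6/1 striata, a log2 ratio of −1.17 ± 0.10 (SE, adjusted p = 1.69e-06 by edgeR). Gpx4 ran the other way, with 225 ± 18.1 CPM in wt retinas and 118 ± 5.79 CPM in wt striata, a log2 ratio of 0.93 ± 0.08 (SE, adjusted p = 4.55e-07 by edgeR). In R6/1 mice the ratio was 0.44 ± 0.08 (SE, adjusted p = 0.000643 by edgeR), with 155 ± 16.8 CPM in retinas and 115 ± 5.20 CPM in striata. Gpx4 was thus ordered wt retina, R6/1 retina and then the striata of both genotypes, which did not differ beyond their spread. Gpx1 was ordered the striata of both genotypes, which did not differ beyond their spread, then R6/1 retina and wt retina.

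Among the other members, Gclm averaged 36.7 ± 4.31 CPM in wt retinas and 70.9 ± 2.79 CPM in wt striata (log2 ratio −0.95, adjusted p = 1.29e-06 by edgeR), and Gclc 48.7 ± 3.74 and 78.0 ± 3.48 CPM (log2 ratio −0.68, adjusted p = 6.44e-06 by edgeR). Sod1 averaged 79.4 ± 4.96 CPM in wt retinas and 125 ± 10.1 CPM in wt striata (log2 ratio −0.66), Sod2 197 ± 6.51 and 272 ± 4.87 CPM (log2 ratio −0.47), and Cat 23.7 ± 4.37 and 43.1 ± 0.281 CPM (log2 ratio −0.86). The log2 ratios in R6/1 mice were −1.08 for Gclm, −0.54 for Gclc, −0.59 for Sod1, −0.59 for Sod2 and −0.53 for Cat, each of which passed. Nqo1 was at the threshold, with a log2 ratio of −0.55 in wt mice (adjusted p = 0.0454 by edgeR) and −0.43 in R6/1 mice (adjusted p = 0.0628 by edgeR, and 0.0438 without R6/1 retina 1). The wt value did not pass with DESeq2 (adjusted p = 0.0941), nor without any of 5 of the 6 libraries, at an adjusted p of up to 0.211 by edgeR. Gpx3 had a log2 ratio of 0.26 in wt mice (adjusted p = 0.596 by edgeR), which became 0.62 (adjusted p = 0.0481) without wt retina 3.

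Gpx3 stood out among the members for its spread between pools. Its coefficient of variation was 74.6% in R6/1 retinas, 46.2% in wt retinas, 88.9% in R6/1 striata and 33.9% in wt striata. Of the other 8 members counted in both tissues the values ran from 0.653% for Cat in wt striata to 26.3% for Nqo1 in wt striata, and Gpx6 had 27.9% in R6/1 striata and 27.1% in wt striata. In all 4 groups the highest Gpx3 value was that of library 2, at 8.44 CPM in R6/1 retinas, 10.9 CPM in wt retinas, 15.3 CPM in R6/1 striata and 9.26 CPM in wt striata. Without R6/1 striatum 2 the striatal log2 fold change of Gpx3 was −0.86 in place of 0.20, so no direction can be read from it.

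The wider network of glutathione and thiol metabolism was followed through 154 other genes in 13 lists. In the retina 18 of the 143 tested rose and 11 fell, 20.3% against 22.3% of all genes, with a median log2 fold change of 0.07. In the striatum 1 of 144 passed, the transferase Gstm1, where 1.45% of all genes did, and 28 had an unadjusted p under 0.05. With the replicate number as a block, which treats striata of equal number as paired, 10 of the 144 passed lower and 3 higher. That is 9.03% against 9.94% of all genes (7.11% lower and 2.83% higher). Of the members Gpx6 alone still passed. The labels do not say whether equal numbers mark paired striata. The lists were chosen with earlier results of these data known, so these counts describe the genes and support no theme.

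Peroxiredoxins, which reduce peroxides with thioredoxin in place of glutathione, were among the retinal genes that rose. In the list of 20 thioredoxin, peroxiredoxin and glutaredoxin genes 5 rose (25%, against 9.58% of all genes tested) and 2 fell (10%, against 12.7%). Prdx4 of the endoplasmic reticulum had 9.93, 7.82 and 9.08 CPM in R6/1 retinas and 6.16, 5.85 and 5.28 CPM in wt retinas (log2 fold change 0.67, adjusted p = 0.00245 by edgeR). Mitochondrial Prdx3 had 43.7, 37.9 and 35.2 CPM in R6/1 retinas and 30.8, 31.7 and 31.6 CPM in wt retinas (log2 fold change 0.34, adjusted p = 0.00541 by edgeR). The log2 fold changes of cytosolic Prdx2 and of Txnrd2, the mitochondrial thioredoxin reductase, were 0.26 (adjusted p = 0.00957 by edgeR) and 0.51 (adjusted p = 0.0115 by edgeR). Txnrd2 did not pass without wt retina 3 (adjusted p = 0.0607 by edgeR) or in the fit of all 12 libraries (adjusted p = 0.0703 by edgeR). Prdx1 rose at 0.25 (adjusted p = 0.0233 by edgeR), and Glrx2 and Txnrd3 fell at −0.20 (adjusted p = 0.0484 by edgeR) and −0.62 (adjusted p = 0.0334 by edgeR). The calls of Prdx1, Glrx2 and Txnrd3 were not tried without single libraries. Cytosolic Txnrd1 and the sulfiredoxin Srxn1 had 0.17 (adjusted p = 0.0961 by edgeR; 0.28 and 0.00637 on library totals) and −0.07 (adjusted p = 0.488 by edgeR). In the striatum none of the 20 passed, and 4 had an unadjusted p under 0.05.

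The genes of glutathione supply and recycling gave 1 higher and 1 lower of 15 in the retina (6.67% each, against 9.58% and 12.7% of all genes). In the striatum none passed, and 1 had an unadjusted p under 0.05. Slc1a1, a transporter of glutamate and cysteine into neurons, had 56.7, 57.7 and 57.7 CPM in R6/1 retinas and 48.0, 41.8 and 48.3 CPM in wt retinas (log2 fold change 0.35, adjusted p = 0.00179 by edgeR), with no overlap. Ggct, a cyclotransferase of glutathione breakdown, had 10.7, 10.1 and 10.4 CPM in R6/1 retinas and 13.7, 15.3 and 15.3 CPM in wt retinas (log2 fold change −0.47, adjusted p = 0.00373 by edgeR). Glutathione synthetase (Gss), at −0.20 (adjusted p = 0.203 by edgeR), glutathione reductase (Gsr), at 0.18 (adjusted p = 0.166 by edgeR; 0.30 and 0.0183 on library totals), and the cystine importer Slc7a11, at −0.17 (adjusted p = 0.448 by edgeR), did not pass in the retina. Their striatal log2 fold changes were 0.33, 0.06 and 0.18, none of which passed. Without wt striatum 2, however, Gss was at 0.47 with an adjusted p of 0.046 by edgeR.

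Of the glutathione S-transferases, which conjugate glutathione to electrophiles, 1 of 22 rose in the retina (4.55%, against 9.58% of all genes). In the striatum 1 of 21 fell (4.76%, against 1.32%). Gstm4 had 4.69, 4.48 and 4.32 CPM in R6/1 retinas and 2.95, 3.66 and 2.75 CPM in wt retinas (log2 fold change 0.56, adjusted p = 0.0376 by edgeR), a call that was lost with DESeq2 (adjusted p = 0.111) and without any of 5 of the 6 retinas (adjusted p up to 0.134 by edgeR). Gstm1 had 88.3, 97.2 and 81.8 CPM in R6/1 striata and 119.6, 118 and 113 CPM in wt striata (log2 fold change −0.39, adjusted p = 0.0419 by edgeR), also without overlap. That call was lost without wt striatum 1 or 3 or R6/1 striatum 1 or 3, at an adjusted p of 0.139 to 0.226 by edgeR, and on library totals (−0.28, adjusted p = 0.077 by edgeR), and remained without either library numbered 2 and with the block (adjusted p = 0.00234 by edgeR). With the block 3 of the 21 transferases fell (14.3%, against 7.11% of all genes) and 1 rose (4.76%, against 2.83%). The extracellular dismutase Sod3 had 0.388 to 1.13 CPM in R6/1 retinas and 0.561 to 1.10 CPM in wt retinas, and 4.73 to 5.33 CPM in R6/1 striata and 4.63 to 5.26 CPM in wt striata, with no call.

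The regulators and other targets of Nrf2 (gene Nfe2l2), the factor that induces Nqo1, Gclc and Gclm under electrophilic stress, passed in the retina for 2 of 10 regulators (20%) and 3 of 13 targets (23.1%), near the 22.3% of all genes. Nfe2l2 had 27.1 to 30.7 CPM in R6/1 retinas and 26.3 to 33.1 CPM in wt retinas (log2 fold change 0.06, adjusted p = 0.69 by edgeR), and its inhibitor Keap1 had 0.06 (adjusted p = 0.597 by edgeR). Of 10 regulators Sqstm1, which binds Keap1, rose at 0.22 (adjusted p = 0.0132 by edgeR), and Cul3, the scaffold of the ligase that degrades Nrf2, fell at −0.23 (adjusted p = 0.00722 by edgeR; 0.117 on library totals). Sqstm1 did not pass without wt retina 1, wt retina 2 or R6/1 retina 3, at an adjusted p of up to 0.0696 by edgeR. The retinal gene with the largest change among the lists' calls was the aldo-keto reductase Akr1b8, with 8.73, 8.33 and 7.03 CPM in R6/1 retinas and 1.00, 0.951 and 0.898 CPM in wt retinas (log2 fold change 3.10, adjusted p = 8.21e-09 by edgeR). The carbonyl reductase Cbr1 rose at 0.51 (adjusted p = 7.64e-05 by edgeR) and the exporter Abcc1 fell at −0.28 (adjusted p = 0.00442 by edgeR; 0.0542 on library totals), the only 3 of the 13 targets beside the members that passed. Haem oxygenase 1 (Hmox1) had 0.38 in the retina (adjusted p = 0.222 by edgeR) and 0.35 in the striatum (adjusted p = 0.442 by edgeR). In the striatum none of these 23 genes passed, with 6 at an unadjusted p under 0.05. The block raised the calls over all genes to 7.11% lower and 2.83% higher. With it 1 of the 10 regulators fell (10%), and of the 13 targets 1 fell (7.69%) and 2 rose (15.4%). Of these Cbr1 was higher at 0.28 (adjusted p = 0.0332 by edgeR).

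NADPH returns oxidised glutathione and thioredoxin to their reduced forms. A list of 12 genes around its supply was followed, among them enzymes, such as Me2 and Tkt, that do not mainly form NADPH themselves. In the retina 3 fell (25%, against 12.7% of all genes) and 2 rose (16.7%, against 9.58%). In the striatum none passed, and 3 had an unadjusted p under 0.05. With the block 1 fell there (8.33%, against 7.11% of all genes). The retinal calls are given next. Malic enzyme Me2 fell, with 31.05, 29.7 and 34.2 CPM in R6/1 retinas and 45.5, 55.2 and 50.5 CPM in wt retinas (log2 fold change −0.64, adjusted p = 1.83e-05 by edgeR). Transketolase (Tkt) and the cytosolic isocitrate dehydrogenase Idh1 fell too, at −0.39 (adjusted p = 0.00113 by edgeR) and −0.31 (adjusted p = 0.00207 by edgeR). NAD kinase (Nadk) rose at 0.43 (adjusted p = 0.000444 by edgeR), as did mitochondrial Idh2 at 0.33 (adjusted p = 0.0454 by edgeR). The Idh2 call was not tried without single libraries. The counts of the transhydrogenase Nnt are split between a pair of overlapping annotated genes of that name, with at most 6.87 CPM (ENSMUSG00000025453) and at least 6.65 CPM (ENSMUSG00000116207) in R6/1 retinas and 4.38 to 5.56 and 4.55 to 7.35 CPM in wt retinas, so its level is uncertain and no change is given.

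Because Gpx1, Gpx3 and Gpx4 need selenium, the genes of selenoprotein synthesis were set beside them. Of 11 such genes 2 rose (18.2%, against 9.58% of all genes) and 1 fell (9.09%, against 12.7%) in the retina. Selenop, the selenium carrier, had 32.4, 38.7 and 28.6 CPM in R6/1 retinas and 24.9, 23.6 and 26.7 CPM in wt retinas (log2 fold change 0.44, adjusted p = 0.00568 by edgeR), and 212 to 278 CPM in R6/1 striata and 251 to 274 CPM in wt striata (adjusted p = 0.616 by edgeR). Sephs1 rose at 0.36 (adjusted p = 0.00151 by edgeR), and Sephs2, which makes the selenium donor, fell at −0.28 (adjusted p = 0.00943 by edgeR), a call lost without wt retina 2 (adjusted p = 0.0599 by edgeR) and on library totals (0.0896). Of 13 other selenoproteins Dio2, an activating deiodinase of thyroid hormone, fell at −0.65 (adjusted p = 0.00313 by edgeR; in the striatum −0.63 and 0.129, and −0.61 and 0.00107 with the block) and Selenot rose at 0.29 (adjusted p = 0.00647 by edgeR). These retinal calls are 7.69% lower and 7.69% higher, against 12.7% and 9.58% of all genes.

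Of 9 genes of lipid peroxidation and ferroptosis tested, Acsl3 fell at −0.38 (adjusted p = 0.000272 by edgeR) and Pebp1 rose at 0.32 (adjusted p = 0.0027 by edgeR). These calls are 11.1% lower and 11.1% higher, near the 12.7% and 9.58% of all genes. Acsl3 activates fatty acids, and Pebp1 binds lipoxygenases. Of 10 sources of superoxide tested, xanthine dehydrogenase (Xdh) rose, with 33.6, 32.6 and 36.6 CPM in R6/1 retinas and 21.1, 23.9 and 24.02 CPM in wt retinas (log2 fold change 0.60, adjusted p = 4.35e-05 by edgeR). Aldehyde oxidase (Aox1) rose at 0.61 (adjusted p = 0.0252 by edgeR), which was lost with DESeq2 (adjusted p = 0.0669) and without wt retina 1, wt retina 2 or R6/1 retina 2 (adjusted p up to 0.12 by edgeR). Of the 10 sources 2 thus rose (20%, against 9.58% of all genes) and none fell. The 3 metallothioneins, the 3 other glutathione peroxidases tested and the copper chaperone of Sod1 gave no call in the retina. In the striatum none of them passed either, but with the block 2 of the 3 metallothioneins fell (66.7%, against 7.11% of all genes). Mt1 was at −0.66 (adjusted p = 0.000283 by edgeR, and 0.068 without the block). Mt2 was at −0.50 (adjusted p = 0.0132 by edgeR, and 0.416 without the block).

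**Figure D4:**
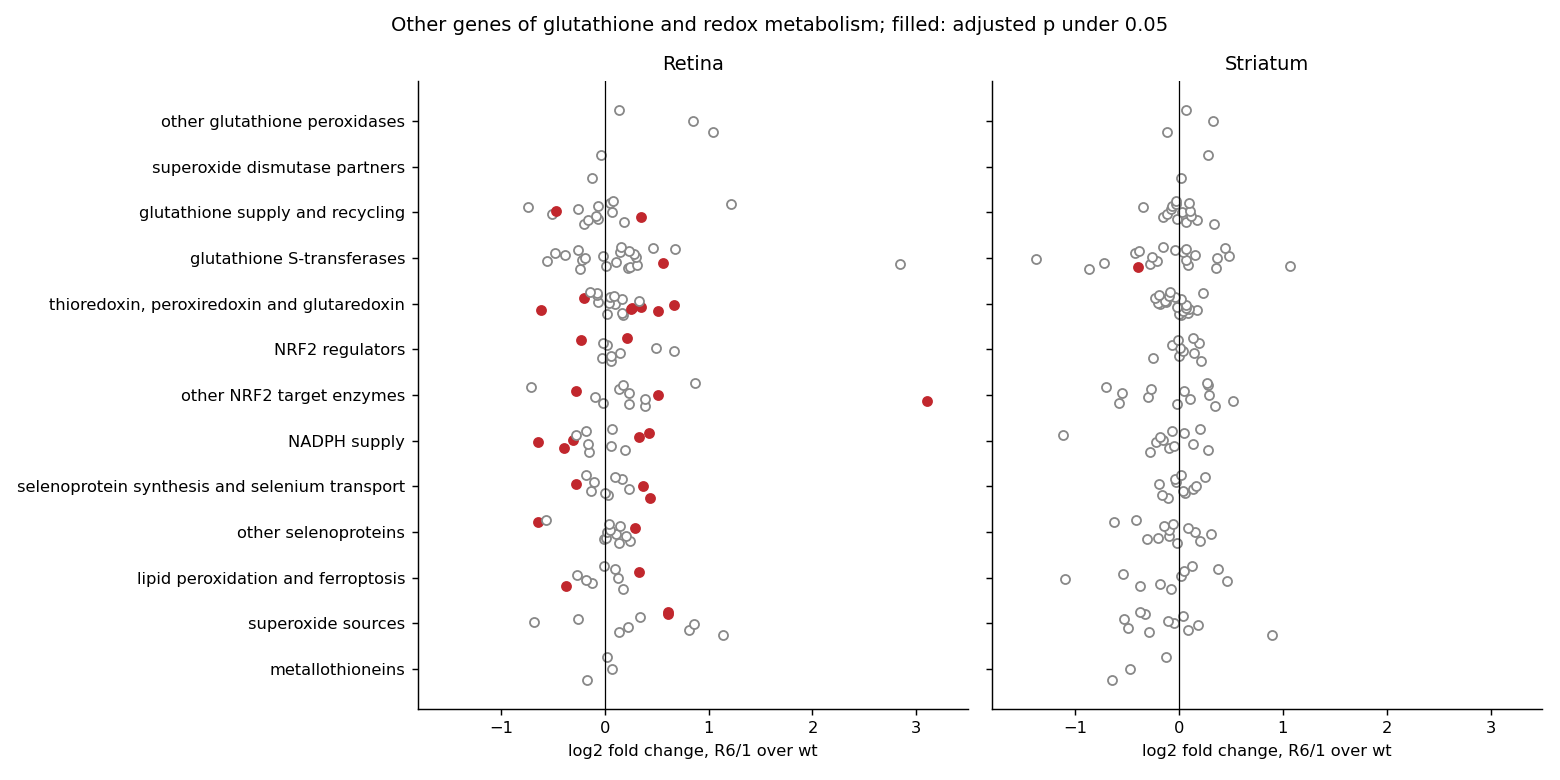
Log2 fold changes of R6/1 over wt (horizontal) for the genes of 13 lists in retina (left) and striatum (right); each point is a gene, and filled points passed an adjusted p of 0.05. The retina holds 18 filled points to the right of 0 and 11 to the left, with Akr1b8 at 3.10 farthest out, and the striatum 1, Gstm1 at −0.39.

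For each member the genes whose profile over the 12 libraries was most like its own were sought among 14179 genes of at least 1 CPM on average, by the root mean square difference of centred log2 CPM. This is a description, with no test, since the profiles share libraries and the contrast of the tissues. Gpx4 was nearest to Rmdn3 (0.0813) and Malsu1 (0.0914), Gpx1 to Slco1a4 (0.0861) and Taf9b (0.0872), and Sod2 to G3bp2 (0.0354), the closest match of all. Sod1 was nearest to Hmox2 (0.0445), Cat to Fam155a (0.0739), Gclc to Eif3b (0.0625), Gclm to Pcyox1 (0.0908) and Nqo1 to Morc4 (0.141). Gpx3 was nearest to Slc26a4 (0.266), and Gpx6, whose profile rises in wt striata alone, was nearest to Car12 (0.65). No member was among the nearest 2 genes of another.

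The antioxidant response element was searched in promoter windows of RefSeq (GRCm38), 300 bases around the start of each gene, by its core TGACNNNGC on either strand. Of the 9 members with a window, Sod1 and Gclm held it in at least 1 window, and 12.4% of all 32851 windows did. The former counts genes and the latter windows, so these shares are not like for like. A match describes these letters and not a bound site. Neither gene passed a genotype comparison. Salmon can divide reads between genes with the same sequence, and Sod2 shares 20% of its 31-base words with Rps6ka2, which is also in the table, so the level of Sod2 is less certain than those of members that share little.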

How the data were processed

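Per the labels and the study's methods, RNA of pooled mice was made into stranded mRNA libraries, and the authors processed the reads with CASAVA, Trimmomatic and Salmon on GRCm38/mm10 (versions not given in the sources used here). The authors deposited estimated counts per gene as whole numbers, not normalized; no column was left out. Symbols came from GENCODE M21 for 17527 of 17579 genes. Within a tissue a gene either had 11 or more counts or was listed at 0 in all 6 libraries (997 genes in retina, 851 in striatum). Salmon can divide reads between genes that share sequence.

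Genes with under 10 counts over the libraries compared (in each tissue for the difference between tissues) were left out. Groups were compared with edgeR 4.0.16 (R 4.3.3) by its robust quasi-likelihood F-test with TMM factors, fitted to the groups compared, and p-values were adjusted over all genes by the Benjamini-Hochberg method with a threshold of 0.05. SE is the log2 fold change over the root of F, and 95% intervals are normal. Log2 CPM used a prior count of 2. Tables and figures used Python 3.11.15, scipy 1.17.1 and matplotlib 3.10.9.

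The members and all lists were chosen with earlier results of these data known. Named were all members, up to 4 called genes per list and tissue with the smallest p, 11 fixed genes and the 2 genes most like each member. Prdx1, Glrx2, Txnrd3, Idh2, Mt1 and Mt2 were named after their values were seen, and were followed under no alternative but the striatal block. Alternatives were DESeq2 1.42.0, its size factors, library totals, other filters, a threshold of 0.01, the replicate number as a block, a fit of all libraries, and leaving out each library, where an arm of 2 shares the spread of the others. Equal numbers were taken to pair libraries where all 3 correlations of deviations from the group mean exceeded 0.1, as in the striata (0.266, 0.337 and 0.267 between wt and R6/1; highest unequal pair 0.284) and not in the retinas (0.134, −0.152 and 0.0546). Meeting this rule does not show pairing in the striata, where the unequal pair at 0.284 exceeded 0.266 and 0.267. Between the tissues the correlations were −0.0163, 0.0318 and −0.00447 in wt mice (highest unequal pair 0.0665). In R6/1 mice they were 0.0956, 0.108 and 0.139 (highest unequal pair 0.0243), so that pairing fell just short of the rule. Libraries of a group differed by more than sampling noise (chi-square per gene 4.35 to 20.5).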

Additional observations from a re-analysis of the deposited data

Results flagged for a closer look

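For 9 genes named above the genotype difference itself differed between the tissues at an adjusted p under 0.05. The test was of the retinal minus the striatal log2 fold change in edgeR over 15731 genes, of which 8.24% passed. Of the 140 other pathway genes tested, 6 passed with a positive and 2 with a negative difference (5.71%), and of the 9 members 1 passed (11.1%). Among the members this was Gpx4, at −0.50 ± 0.11 (SE, adjusted p = 0.0149 by edgeR), lower in every R6/1 retina than in every wt retina and overlapping in the striatum. Among the other genes the difference was positive for Slc1a1 at 0.47 ± 0.10 (adjusted p = 0.00802 by edgeR), Gstm1 at 0.68 ± 0.16 (adjusted p = 0.0185 by edgeR), Akr1b8 at 2.54 ± 0.49 (adjusted p = 0.00532 by edgeR), Nadk at 0.35 ± 0.10 (adjusted p = 0.0475 by edgeR), Xdh at 0.89 ± 0.17 (adjusted p = 0.00549 by edgeR) and Aox1 at 0.95 ± 0.26 (adjusted p = 0.0363 by edgeR). It was negative for Ggct at −0.61 ± 0.14 (adjusted p = 0.0173 by edgeR) and Abcc1 at −0.36 ± 0.10 (adjusted p = 0.0297 by edgeR). For Nadk, Abcc1 and Aox1 the call was lost without most single libraries, at adjusted p of up to 0.106, 0.084 and 0.0954 by edgeR, and for Gstm1 without wt retina 2, at 0.0565. Groups of 3 libraries are too small for a test of single outlying libraries.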

How the results depend on the processing

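Counts of members called moved by more than 1.5 times under 6 of 158 alternatives. Retinal members higher numbered 3 with library totals, and 1 to 2 without single libraries. Striatal members lower numbered 0 to 1 without single libraries. For the difference between tissues, members lower numbered 0 at a threshold of 0.01, and members higher numbered 1 with a block by pool, chosen after seeing the data, which pairs the tissues of a genotype by replicate number and brought Gpx1 to an adjusted p of 0.0334 by edgeR (0.42). In wt tissues, members higher numbered 1 to 2 without single libraries.

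Some log2 values of genes that did not pass changed sign, and the cause was not tested. On library totals the striatal values were 0.074 for Gpx4, 0.073 for Sod1, 0.106 for Gclc, 0.110 for Keap1 and 0.0105 for Selenop, and the retinal value of Srxn1 was 0.045. In the fit of all 12 libraries Sod2 was at −0.0022 in the retina, and Gclc and Keap1 were at 0.00025 and 0.0041 in the striatum. Without single libraries or both striata numbered 2, the striatal values ran from −0.0368 to 0.173 for Gpx1, −0.857 to 0.579 for Gpx3, −0.0757 to 0.0296 for Gpx4, −0.0930 to 0.0535 for Sod1, −0.0137 to 0.380 for Nqo1, −0.0602 to 0.0621 for Gclc, −0.0339 to 0.0514 for Keap1 and −0.0367 to 0.0799 for Sod3. Those of the retina ran from −0.0219 to 0.144 for Gclm and −0.560 to 0.179 for Sod3, those of the difference from −1.85 to 0.0232 for Gpx3, −0.0089 to 0.115 for Sod1 and −0.132 to 0.253 for Nqo1, and the R6/1 tissue ratio of Gpx3 from −1.57 to 0.305.

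With the replicate number as a block, which treats striata of equal number as paired, the striatal value of Gpx3 was −0.0089 (−0.104 with DESeq2 and the block). That of Gpx6 was −4.72, and the block changed no striatal call of a member. Over the other pathway genes, where it was run after seeing the data, calls became 10 lower and 3 higher, against 1 and 0. Among them were Cbr1, Dio2, Mt1 and Mt2 of the genes named above. Between R6/1 retinas and R6/1 striata the correlations of equal numbers were 0.0956, 0.108 and 0.139 (highest unequal pair 0.0243), just short of the rule for pairing. In the other comparisons equal numbers did not meet that rule. There the block changed the calls of Nqo1 between wt tissues (−0.52, adjusted p = 0.0701 by edgeR), Gpx3 between R6/1 tissues (−0.65, adjusted p = 0.0148 by edgeR) and Gstm4 in the retina (adjusted p = 0.0505 by edgeR), and the block by pool that of Nadk for the difference (adjusted p = 0.0739 by edgeR).

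Over all genes, retinal calls with library totals were 1445 lower and 3886 higher, against 2103 and 1588 with TMM, and striatal calls 209 and 220, against 220 and 22. The 242 striatal calls became 988 with DESeq2, 1020 with DESeq2 and the block, 1663 with the block, 1300 in the fit of all libraries, 7 at a threshold of 0.01 and 2662 without both libraries numbered 2. The 3691 retinal calls became 2109 at 0.01, and the 1296 calls of the difference became 442 at 0.01 and 767 to 1999 without single libraries. Of 727 values of members under alternatives 682 kept their sign and side of the threshold, and of 846 values of pathway genes 765 did.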
